A study of Mus musculus with 8 samples.

Results

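The BCL2 family genes that set the threshold for B-cell death were examined in sorted splenic B cells of mice given HGAL, a human adaptor protein gene of germinal centre B cells. The set holds 10 genes: 5 BH3-only genes (Bmf, Bcl2l11, Bid, Bbc3 and Pmaip1), 3 pro-survival genes (Bcl2, Bcl2l1 and Mcl1) and 2 effectors (Bax and Bak1). A member was measured where the platform's annotation gave a probe set that member's symbol alone, which held for 9 of the 10, out of 19937 genes in all. Each of the 9 had 1 probe set, and Bax was not analysed here. Both groups were adult mice of the CBAxC57BL/6J background, and the cells were spleen cells sorted as positive for both CD22 and B220. The Sca1-HGAL group (4 arrays) carried HGAL driven by the Sca1 (Ly-6E.1) promoter and is called knock-in in one label and transgenic in another. The Control group (4 arrays) came from wild-type littermates. Neither a drug nor a stimulus is given for either group, and whether each array is a separate mouse is not stated, so the p-values take in the variation of these arrays alone, which may be technical. Probes for mouse transcripts are no sure measure of human HGAL, so its expression was not checked here. Total RNA was read on Affymetrix Mouse Gene 1.0 ST arrays, and levels below are log2 intensities, with log2 folds as Sca1-HGAL minus Control. The X-inactivation transcript Xist was at 5.28 to 5.65 on Sca1-HGAL arrays and at 5.32 and 5.56 on Control arrays 1 and 3. On Control arrays 2 and 4 it was at 12.17 and 12.18. The Y-linked gene Eif2s3y ran the other way, at 10.22 to 10.50 on Sca1-HGAL arrays. It was at 10.61 and 10.21 on Control arrays 1 and 3, and at 4.22 and 3.96 on Control arrays 2 and 4. Control arrays 2 and 4 alone thus had the female pattern, and sex was uneven between the groups.

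Mitochondrial apoptosis is decided by binding between proteins of this family. Pro-survival members hold the effectors BAX and BAK in check, BH3-only proteins bind and neutralise the pro-survival members or activate the effectors directly, and freed effectors permeabilise the outer mitochondrial membrane. In the B lineage, BIM (Bcl2l11) removes self-reactive cells, mice lacking Bmf or Bcl2l11 accumulate B cells, and BCL2 and MCL1 sustain mature B cells. FoxO transcription factors, which are kept out of the nucleus by PI3 kinase signalling, are known activators of Bcl2l11 and Bbc3.

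The start regions of 4 BH3-only genes are shown because they hold the 3 members with an unadjusted p under 0.05 (Bmf, Bcl2l11 and Bid) and a contrasting BH3-only gene with a log2 fold near 0 (Bbc3). The windows are RefSeq's on build GRCm38.p6, from 250 bases before to 50 after a start. For 9 of the 10 genes they were searched, 16 windows in all, and Pmaip1 was left out of the search. Capitals mark the FoxO core GTAAACA and the GC box GGGCGG, each on either strand, and no 2 marked matches of the different motifs overlap. Where a gene had several windows, the one shown was picked for its matches, a FoxO core first and then the most GC boxes. The windows shown are thus not typical of their genes.
Bmf, chr2:118549637-118549936, minus strand: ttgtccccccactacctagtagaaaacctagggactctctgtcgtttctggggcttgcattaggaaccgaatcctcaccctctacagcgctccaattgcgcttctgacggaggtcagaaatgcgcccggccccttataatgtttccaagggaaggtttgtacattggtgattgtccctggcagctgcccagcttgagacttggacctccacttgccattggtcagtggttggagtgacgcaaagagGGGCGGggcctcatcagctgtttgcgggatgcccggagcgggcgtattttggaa
Bcl2l11, chr2:128125788-128126087, plus strand: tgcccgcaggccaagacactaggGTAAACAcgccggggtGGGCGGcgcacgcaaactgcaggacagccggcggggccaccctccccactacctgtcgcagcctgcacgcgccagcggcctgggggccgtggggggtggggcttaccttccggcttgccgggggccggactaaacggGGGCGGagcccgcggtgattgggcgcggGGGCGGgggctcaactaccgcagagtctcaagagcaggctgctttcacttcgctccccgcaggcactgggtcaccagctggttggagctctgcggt
Bid, chr6:120916775-120917074, minus strand: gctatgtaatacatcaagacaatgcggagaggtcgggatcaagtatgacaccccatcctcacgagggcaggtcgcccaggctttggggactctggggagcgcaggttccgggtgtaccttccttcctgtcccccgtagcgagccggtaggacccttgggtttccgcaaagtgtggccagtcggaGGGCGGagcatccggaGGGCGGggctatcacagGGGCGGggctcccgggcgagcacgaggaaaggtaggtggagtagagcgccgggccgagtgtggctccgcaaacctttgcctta
Bbc3, chr7:16310011-16310310, plus strand: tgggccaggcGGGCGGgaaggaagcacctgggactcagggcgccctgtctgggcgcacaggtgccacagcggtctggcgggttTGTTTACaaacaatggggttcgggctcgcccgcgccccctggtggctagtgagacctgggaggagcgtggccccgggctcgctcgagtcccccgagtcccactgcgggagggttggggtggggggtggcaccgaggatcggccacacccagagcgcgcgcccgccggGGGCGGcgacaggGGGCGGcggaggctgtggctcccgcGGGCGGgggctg

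The FoxO core was found in 1 of 2 Bcl2l11 windows, with its first base 227 bases before the start, and in 1 of 3 Bbc3 windows, 167 bases before the start. It was in none of the 3 Bmf windows and not in the Bid window. Among all 32851 promoter windows of this length, 3.65% hold it. The GC box was found in at least 1 window of 7 of the 9 genes searched, among them Bmf in 1 of 3 windows. Of all windows, 35.7% hold it. That share is per window and the count is per gene, and as some genes have several windows they cannot be compared directly. Such matches describe the letters of these windows only. Among the FoxO transcripts, Foxo1 differed by -0.13 on the log2 scale (SE 0.08, limma adjusted p = 0.638) and Foxo3 by 0.01 (SE 0.08, adjusted p = 0.993).

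Sca1-HGAL B cells had lower levels of 3 BH3-only transcripts, Bmf, Bcl2l11 and Bid, and none of the 9 members passed the test over all genes. The threshold was a limma adjusted p under 0.05, which 1 of 21640 probe sets met, or 0.00462%. At a limma unadjusted p under 0.05, 3 of 9 members counted, all lower in Sca1-HGAL, beside 9.59% of all probe sets, 4.06% lower and 5.53% higher. The members' median log2 fold was -0.07, beside 0.01 over all probe sets. The arrays of the groups did not overlap for 2 members, Bmf and Bid, both lower in Sca1-HGAL, beside 5.45% of all probe sets, 2.3% lower and 3.15% higher. As the members were chosen with earlier results of these data known, these counts are a description and no test of the set. Without Control arrays 2 and 4, which had high Xist, the log2 folds were -0.79 for Bmf, -0.57 for Bcl2l11 and -0.19 for Bid. Bid then missed the unadjusted threshold (limma unadjusted p = 0.056). The pro-survival gene Bcl2l1 met it there, higher in Sca1-HGAL at a log2 fold of 0.28 (limma unadjusted p = 0.044, adjusted p = 0.606). Because the RNA is from whole sorted populations, fewer cells of a type and less RNA per cell cannot be told apart.

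**Figure D1:**
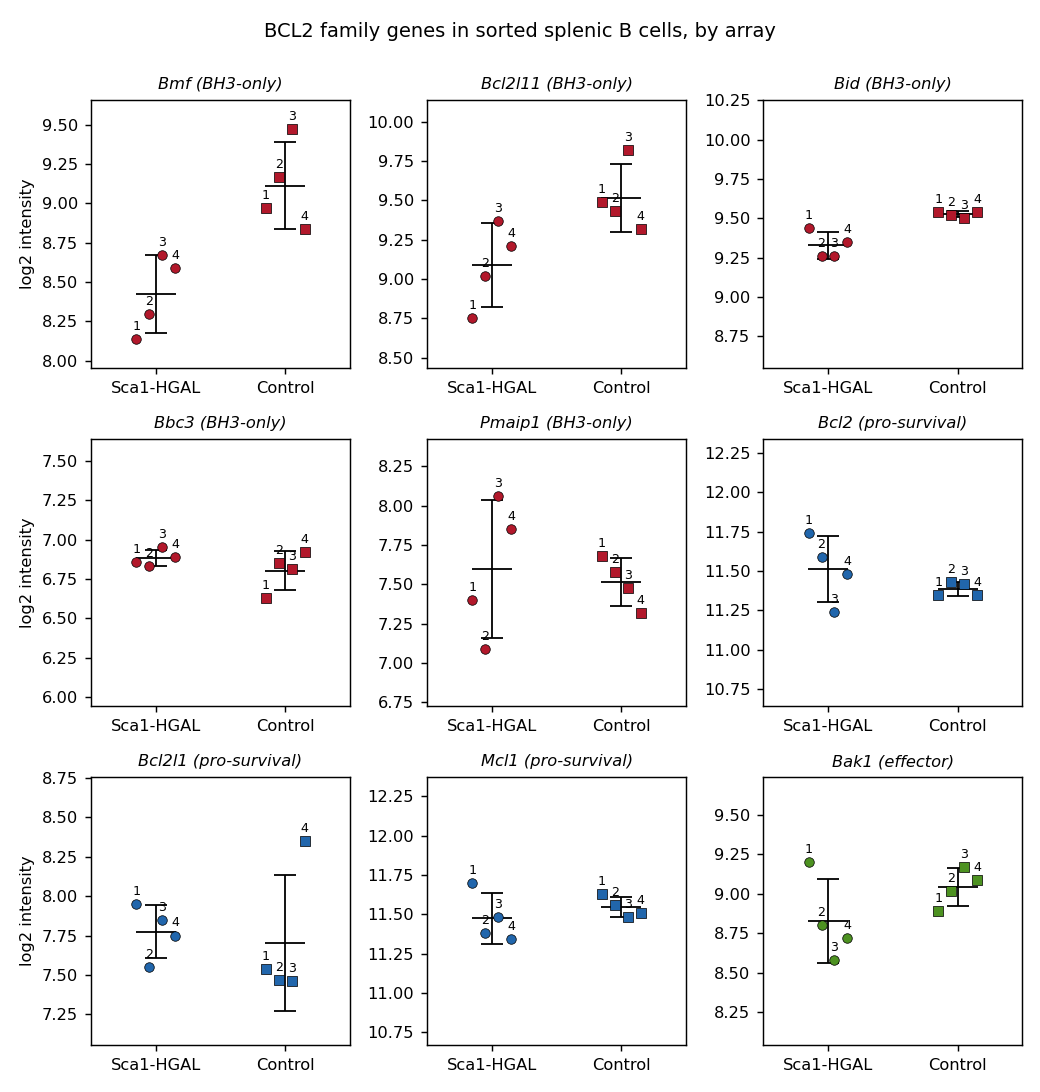
Log2 intensity of the 9 measured members on each array, Sca1-HGAL left and Control right, with replicate numbers beside the points, the group mean as a horizontal bar and its SD as whiskers (n = 4 each). Each panel spans the same height on the log2 scale, and the groups are apart for Bmf and Bid.

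Bmf encodes a BH3-only protein that binds the dynein light chain of myosin motors and is freed when the cytoskeleton is disturbed. Its level (probe set 10486112) was 8.14, 8.30, 8.67 and 8.59 on Sca1-HGAL arrays 1 to 4, against 8.97, 9.17, 9.47 and 8.84 on Control arrays 1 to 4. All 4 Sca1-HGAL arrays lay below all 4 Control arrays, and the nearest pair was Sca1-HGAL 3 and Control 4. The means were 8.43 ± 0.25 in Sca1-HGAL and 9.11 ± 0.27 in Control arrays (SD, n = 4 each). The log2 fold of -0.69 (SE 0.15, 95% interval -1.02 to -0.35) puts the Sca1-HGAL level at 62.1% of the Control level, with an interval of 49.2 to 78.5%. With a limma unadjusted p = 0.0011, Bmf ranked 133 of 21640 probe sets, and the adjusted p was 0.18. Without Sca1-HGAL replicate 3 the log2 fold was -0.77 and the adjusted p = 0.0881, the lowest over the 18 alternatives run.

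Bcl2l11 encodes BIM, which binds every pro-survival member and limits the life of resting lymphocytes. Its level (probe set 10475866) was 8.75, 9.02, 9.37 and 9.21 on Sca1-HGAL arrays 1 to 4, against 9.49, 9.43, 9.82 and 9.32 on Control arrays 1 to 4. Here 3 of 4 Sca1-HGAL arrays lay below every Control array, while Sca1-HGAL 3 lay just above Control 4. The log2 fold was -0.43 (SE 0.14, 95% interval -0.75 to -0.11), or 74.3% of the Control level, with a limma unadjusted p = 0.013 and an adjusted p = 0.375. Both Bmf and Bcl2l11 had the same order of arrays within the Sca1-HGAL group, lowest on array 1, then 2, then 4, and highest on array 3. In the Control group both were highest on array 3 and lowest on array 4.

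Bid is cut by caspase-8 after death receptor signals, and the fragment activates BAX and BAK. Its level (probe set 10547531) was 9.44, 9.26, 9.26 and 9.35 on Sca1-HGAL arrays 1 to 4, against 9.54, 9.52, 9.50 and 9.54 on Control arrays 1 to 4. The groups did not overlap, and the Control arrays differed little among themselves, with an SD of 0.02. The difference was the smallest of the 3 at a log2 fold of -0.20 (SE 0.06, 95% interval -0.33 to -0.06), or 87.3% of the Control level, with a limma unadjusted p = 0.009 and an adjusted p = 0.342. Unlike Bmf and Bcl2l11, Bid was highest on array 1 of the Sca1-HGAL group.

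The remaining BH3-only genes, both known as p53 targets, had values near 0 or spread widely. Bbc3, which encodes PUMA, was at 6.86, 6.83, 6.95 and 6.89 on Sca1-HGAL arrays 1 to 4, against 6.63, 6.85, 6.81 and 6.92 on Control arrays 1 to 4. The groups overlapped, and the log2 fold was 0.08 (SE 0.07, 95% interval -0.08 to 0.24, limma adjusted p = 0.79). Pmaip1, which encodes NOXA, a partner of MCL1, was at 7.40, 7.09, 8.06 and 7.85 on Sca1-HGAL arrays 1 to 4, against 7.68, 7.58, 7.48 and 7.32 on Control arrays 1 to 4. Sca1-HGAL arrays 3 and 4 lay above, and array 2 below, every Control array. The SD was 0.44 in Sca1-HGAL and 0.15 in Control arrays, and the log2 fold of 0.09 (SE 0.19, adjusted p = 0.929) had a 95% interval from -0.33 to 0.50. Its sign turned without Sca1-HGAL replicate 3, at -0.07. The median log2 fold of the 5 BH3-only genes was -0.20.

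Among the pro-survival genes, no log2 fold exceeded 0.13 in size. Bcl2, whose protein guards the mitochondria of mature B cells, was at 11.74, 11.59, 11.24 and 11.48 on Sca1-HGAL arrays 1 to 4, against 11.35, 11.43, 11.42 and 11.35 on Control arrays 1 to 4. Of the Sca1-HGAL arrays, 1, 2 and 4 lay above every Control array and 3 lay below them all. The log2 fold was 0.13 (SE 0.10, 95% interval -0.09 to 0.35, limma adjusted p = 0.734). With arrays left out 1 at a time it ran from 0.05 without Sca1-HGAL replicate 1 (limma unadjusted p = 0.58) to 0.22 without Sca1-HGAL replicate 3 (unadjusted p = 0.018, adjusted p = 0.318). In the Sca1-HGAL group Bcl2 was highest on array 1, then 2, then 4, and lowest on array 3, the reverse of the order for Bmf and Bcl2l11.

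Mcl1 encodes a short-lived protein that B cells need at most stages. It was at 11.70, 11.38, 11.48 and 11.34 on Sca1-HGAL arrays 1 to 4, against 11.63, 11.56, 11.48 and 11.51 on Control arrays 1 to 4. The groups overlapped, and the log2 fold was -0.07 (SE 0.08, limma adjusted p = 0.846). Its 95% interval, -0.25 to 0.12, spans 83.8 to 109% of the Control level.

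Bcl2l1 encodes BCL-XL, which protects developing B cells and red cell precursors. It was at 7.95, 7.55, 7.85 and 7.75 on Sca1-HGAL arrays 1 to 4, against 7.54, 7.47, 7.46 and 8.35 on Control arrays 1 to 4. Control 4 lay above all other arrays, and the 4 Sca1-HGAL arrays lay above the other 3 Control arrays. The log2 fold was 0.07 (SE 0.19, limma adjusted p = 0.944), and 0.29 without Control replicate 4 (unadjusted p = 0.016, adjusted p = 0.431). The haem synthesis gene Alas2, an erythroid marker, was at 11.25 to 11.78 on Sca1-HGAL arrays, against 9.43 to 10.78 on Control arrays 1 to 3 and 12.00 on Control 4, the highest of the 8. The other erythroid marker measured, Klf1, did not stand out on Control 4. It was at 6.35 to 6.54 on Sca1-HGAL arrays and 6.28 to 6.62 on Control arrays, with Control 4 at 6.54. The part of erythroid RNA in the Bcl2l1 value was not tested.

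Of the effectors, Bak1 was measured. It was at 9.20, 8.80, 8.58 and 8.72 on Sca1-HGAL arrays 1 to 4, against 8.89, 9.02, 9.17 and 9.09 on Control arrays 1 to 4. Sca1-HGAL 1 was the highest of all 8 arrays, and the other 3 Sca1-HGAL arrays were the lowest. The log2 fold was -0.22 (SE 0.12, 95% interval -0.50 to 0.06, limma adjusted p = 0.622). With arrays left out 1 at a time it ran from -0.34 without Sca1-HGAL replicate 1 (limma unadjusted p = 0.0029, adjusted p = 0.214) to -0.13 without Sca1-HGAL replicate 3 (unadjusted p = 0.30). With array weights its unadjusted p was also under 0.05, at 0.022.

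**Figure D2:**
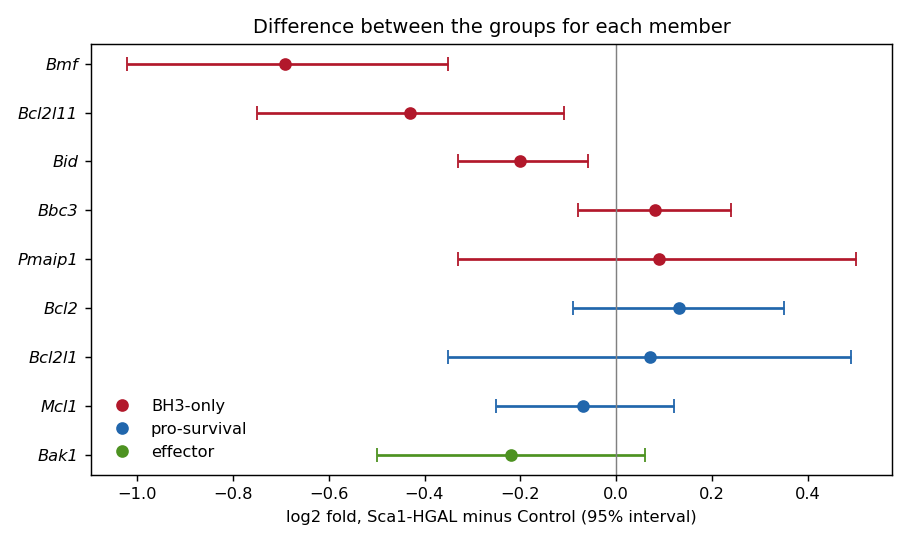
Log2 fold of each measured member, Sca1-HGAL minus Control, with limma's 95% interval and colours for the 3 classes. The intervals of Bmf, Bcl2l11 and Bid lie below 0, before any adjustment for the number of genes tested, and the other 6 include 0.

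B-cell markers were bright on all 8 arrays, while 2 lists for B-cell subsets, marginal zone and B-1 with age-associated cells, had ranges that did not overlap between the groups. Lists are given here as the mean log2 level of their measured markers. Here and below, the marker lists were chosen with earlier results of these data known, and their counts are given as a description. The B-cell list (7 of 8 measured) was at 12.78 to 12.86 on Sca1-HGAL and 12.85 to 12.89 on Control arrays. The list for B-1 and age-associated B cells (9 of 9) was at 8.20 to 9.17 on Sca1-HGAL and 7.88 to 8.03 on Control arrays, and at an unadjusted p under 0.05, 8 of the 9 were higher in Sca1-HGAL, beside 5.53% of all probe sets. The marginal zone B list (8 of 8) was at 9.31 to 9.43 on Sca1-HGAL and 9.75 to 10.13 on Control arrays, with 6 of the 8 lower in Sca1-HGAL at that p, beside 4.06% of all probe sets. The follicular B list (4 of 5) was at 11.04 to 11.42 on Sca1-HGAL and 11.33 to 11.45 on Control arrays, with 2 of the 4 lower at that p. No marker passed after adjustment. Summed over its genes, linear intensity was 3677 to 7444 on Sca1-HGAL and 2923 to 3037 on Control arrays for the B-1 and age-associated list, and 9823 to 11914 on Sca1-HGAL and 12753 to 15995 on Control arrays for the marginal zone list.

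Transcripts of other cell types were measured in both groups. At an unadjusted p under 0.05, 5 of 8 neutrophil markers and 1 of 7 macrophage and monocyte markers were higher in Sca1-HGAL, beside 5.53% of all probe sets. At the same p, 2 of 6 NK-cell, 2 of 6 plasma cell and 2 of 5 plasmacytoid dendritic cell markers were lower, beside 4.06%, and no T-cell or erythroid marker counted in either direction. T-cell markers (8 of 9) were at 6.98 to 8.04 on Sca1-HGAL and 7.36 to 7.74 on Control arrays, and NK-cell markers (6 of 6) at 6.16 to 6.90 on Sca1-HGAL and 6.58 to 7.09 on Control arrays. Macrophage and monocyte markers (7 of 8) were at 7.67 to 8.15 on Sca1-HGAL and 7.60 to 8.07 on Control arrays. Neutrophil markers (8 of 8) were at 6.38 to 7.21 on Sca1-HGAL and 6.26 to 6.62 on Control arrays, and their summed intensity was 716 to 1197 on Sca1-HGAL and 648 to 819 on Control arrays. Plasma cell markers (6 of 6) were at 8.82 to 9.57 on Sca1-HGAL and 9.15 to 9.51 on Control arrays, and the 2 of 5 erythroid markers measured at 8.81 to 9.14 on Sca1-HGAL and 8.03 to 9.27 on Control arrays. Plasmacytoid dendritic cell markers (5 of 5) were at 8.85 to 9.04 on Sca1-HGAL and 9.04 to 9.52 on Control arrays, and 3 of the 5 had a negative and 2 a positive log2 fold. Their defining gene Siglech was at 7.02 to 7.48 on Sca1-HGAL and 7.58 to 8.61 on Control arrays, while Tcf4 had a log2 fold of 0.22 and Irf8 one of 0.04. The values carry no detection calls, and the lowest intensity in the table was 4.94, so no marker can be read as absent.

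The B-1 and age-associated list had the same order of Sca1-HGAL arrays as Bcl2, and the reverse of the order for Bmf and Bcl2l11. It was at 9.17 on array 1, 9.05 on array 2, 8.61 on array 4 and 8.20 on array 3. The T-cell, NK-cell and neutrophil lists had that order in the Sca1-HGAL group as well. The Control group did not show this reversal at its top array. There the B-1 and age-associated (8.03), T-cell (7.74), NK-cell (7.09) and neutrophil (6.62) lists were all highest on array 3. Bmf and Bcl2l11 were highest on that Control array too. The homing receptor gene Ccr7, a follicular marker, was at 11.31, 11.47, 11.96 and 11.64 on Sca1-HGAL arrays 1 to 4. On Control arrays 1 to 4 it was at 12.10, 11.96, 12.16 and 11.81. It is shown because its profile was among the 4 most like that of Bcl2l11, so the likeness was fixed by that choice. The other follicular markers measured had log2 folds of -0.42 (Fcer2a), -0.11 (Cxcr5) and 0.10 (Klf2). The part of these cell types and subsets in the Bmf, Bcl2l11 and Bcl2 values was not tested.

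**Figure D3:**
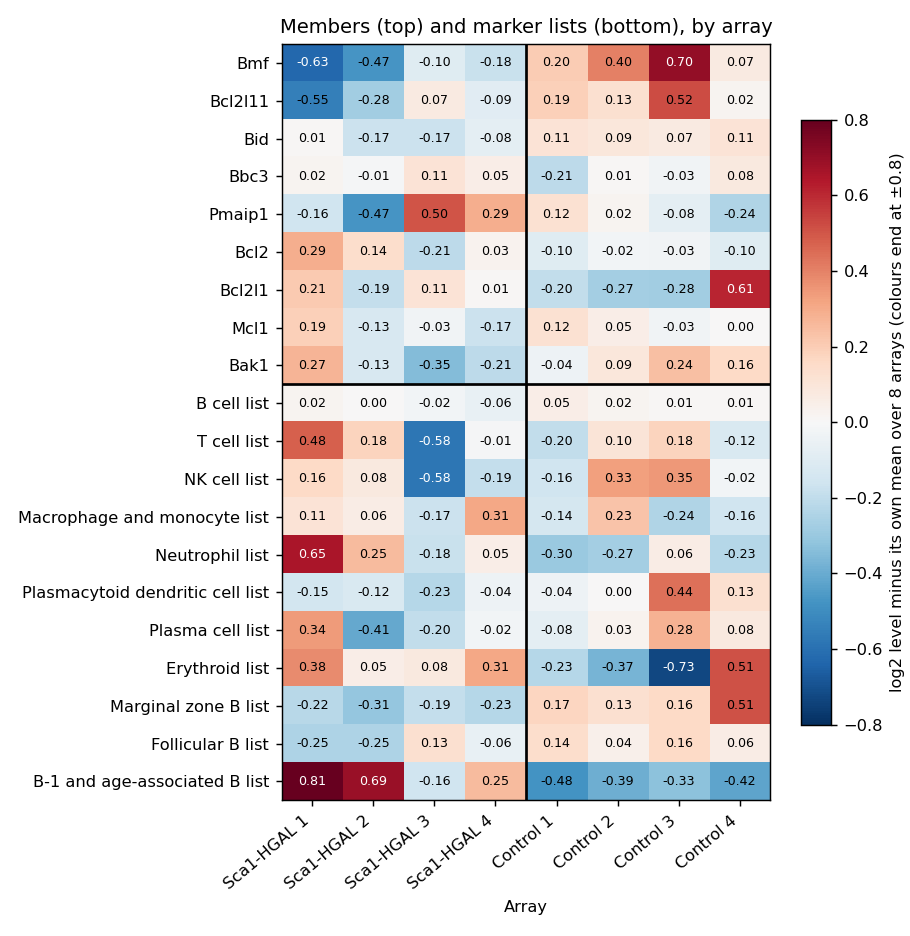
Log2 level of each member (top) and mean log2 level of each marker list (bottom) on each array, minus its own mean over the 8 arrays, with Sca1-HGAL left of the vertical line and Control right. On Sca1-HGAL array 1, Bmf was at -0.63 and the B-1 and age-associated list at 0.81, and on Sca1-HGAL array 3 they were at -0.10 and -0.16.

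The genes whose profile was most like that of Bmf were found by the mean absolute difference over the 8 arrays, after centring each gene on its own mean, among 15723 genes with a mean log2 level of at least 6. They were Il27ra (0.123 on the log2 scale), Csrp2 (0.127), Tspoap1 (0.128) and Bcl2l11 (0.129), where Bmf's own mean absolute deviation was 0.34. For Bcl2l11, with its own deviation of 0.23, they were Vangl2 (0.052), Ccr7 (0.071), Zfp608 (0.080) and Arntl2 (0.083), and Bmf ranked 71. Il27ra encodes a cytokine receptor chain, at -0.51 between the groups on the log2 scale (SE 0.09, limma adjusted p = 0.122). Vangl2 is a planar cell polarity gene, at -0.42 (SE 0.13, adjusted p = 0.33). The likeness takes in the difference between the groups, so log2 folds of the same sign follow largely from the choice. None of these genes passed over all genes tested.

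Around the BCL2 family, 73 of 83 listed apoptosis genes were measured and none passed over all genes. At a limma unadjusted p under 0.05, 6 were lower and 3 higher in Sca1-HGAL, or 12.3%, beside 9.59% of all probe sets, and the median log2 fold was -0.02. The groups did not overlap for 4 of the 73, or 5.48%, beside 5.45%. The lists were chosen with earlier results of these data known, and the counts are given as a description.

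In the list of further BCL2 family genes and relatives (13 of 16 measured), 1 was lower and 1 higher at an unadjusted p under 0.05. Bcl2l13, which encodes a mitochondrial relative of BCL2, was at 9.22, 9.17, 9.17 and 9.17 on Sca1-HGAL arrays 1 to 4, against 9.28, 9.36, 9.44 and 9.41 on Control arrays 1 to 4. Its groups did not overlap, and the log2 fold was -0.19 (SE 0.06, limma adjusted p = 0.33). Hrk, a BH3-only gene best known from neurons, was at 8.66, 8.50, 8.68 and 8.64 on Sca1-HGAL arrays 1 to 4, against 8.50, 8.49, 8.47 and 8.47 on Control arrays 1 to 4. The log2 fold was 0.14 (SE 0.06, adjusted p = 0.502). The groups did not overlap, but by less than the rounding, as Sca1-HGAL 2 and Control 1 were both at 8.50. The BH3-only gene Bad had -0.02 (SE 0.08, adjusted p = 0.959), and Bcl2l2, which encodes the pro-survival BCL-W, had 0.22 (SE 0.10, adjusted p = 0.535). The Bcl2a1 genes were not analysed here.

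Downstream of the mitochondria, the caspase and apoptosome list (13 of 15 measured) had a median log2 fold of -0.07, with 1 member lower at an unadjusted p under 0.05. That was Casp6, an executioner caspase, at 9.13, 8.90, 9.12 and 9.17 on Sca1-HGAL arrays 1 to 4, against 9.21, 9.28, 9.34 and 9.34 on Control arrays 1 to 4. Its groups did not overlap, and limma gave -0.21 on the log2 scale (SE 0.07, adjusted p = 0.40). The groups also did not overlap for Casp8, the caspase that cuts BID, named here after its values were seen. It was at 11.68, 11.67, 11.72 and 11.72 on Sca1-HGAL arrays 1 to 4, against 11.84, 11.80, 11.76 and 11.87 on Control arrays 1 to 4, and its log2 fold was -0.12 (SE 0.05, limma unadjusted p = 0.052, adjusted p = 0.523). The initiator Casp9 and the apoptosome scaffold Apaf1 had log2 folds of 0.02 (95% interval -0.14 to 0.17) and 0.01 (-0.13 to 0.15). Of 9 death receptor and adaptor genes, none had an unadjusted p under 0.05, and their log2 folds ran from -0.05 to 0.29.

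Among the 7 inhibitors of apoptosis and relatives, Naip5 alone had an unadjusted p under 0.05. NAIP proteins are best known as sensors of bacterial flagellin and secretion parts, and the Naip genes are close copies, so its probe set may also report the others. Naip5 was at 8.95, 8.91, 8.32 and 8.93 on Sca1-HGAL arrays 1 to 4, against 8.47, 8.28, 7.99 and 7.78 on Control arrays 1 to 4. Sca1-HGAL 3 lay within the Control range and the other 3 above it, and the difference was 0.65 on the log2 scale (SE 0.17, limma adjusted p = 0.282). Of the 10 mitochondrial partners of BAX and BAK, Vdac1, a channel of the outer membrane, had -0.26 (SE 0.10, adjusted p = 0.489) and was the single one with an unadjusted p under 0.05.

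Of 21 measured controllers of the family's genes and proteins, 3 were lower and 1 was higher at an unadjusted p under 0.05, with a median log2 fold of -0.11. The NF-kB subunit gene Rel, an activator of Bcl2l1 in stimulated B cells, had -0.31 (SE 0.12, limma adjusted p = 0.474). The p53 ubiquitin ligase gene Mdm2 had -0.19 (SE 0.07, adjusted p = 0.426) and the cell cycle factor E2f1 had -0.25 (SE 0.11, adjusted p = 0.514). Dynll2, the light chain that holds BMF at the cytoskeleton, had 0.17 (SE 0.08, adjusted p = 0.519). Tnfrsf13c, which encodes the survival receptor for BAFF, had -0.02 (SE 0.07, 95% interval -0.18 to 0.14, adjusted p = 0.954). Trp53 was not analysed here.

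**Figure D4:**
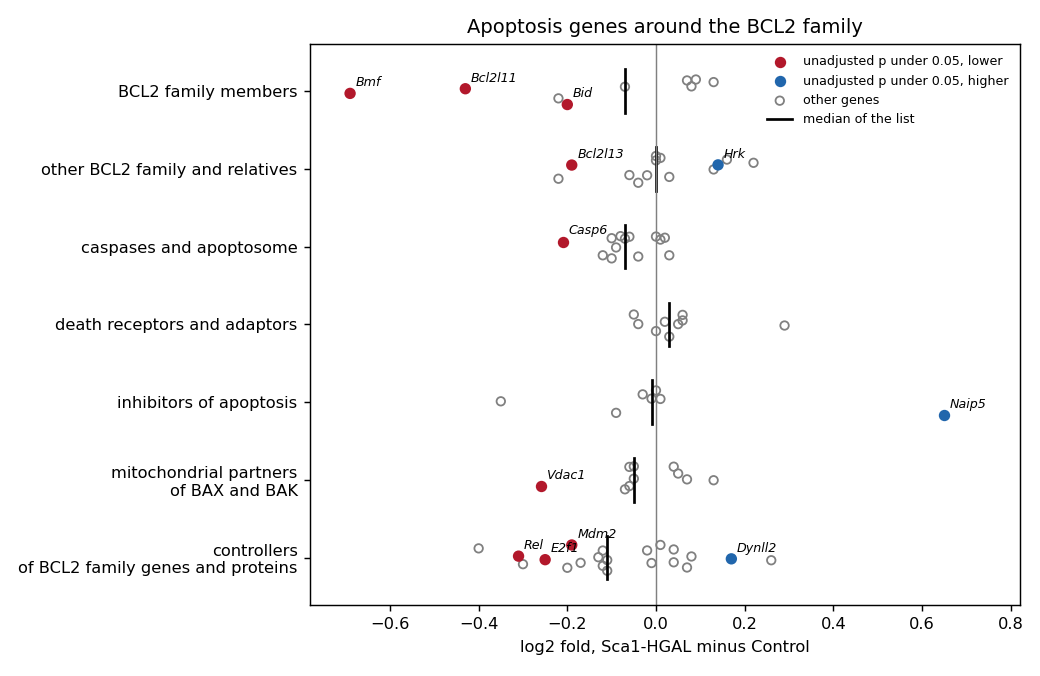
Log2 fold of each measured gene, Sca1-HGAL minus Control, for the BCL2 family members and the 6 surrounding lists, with filled points for a limma unadjusted p under 0.05 and a bar at each list's median. Bmf at -0.69 and Naip5 at 0.65 lie farthest from 0, and the list medians lie between -0.11 and 0.03.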

How the data were processed

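Sample titles gave each array its group and replicate number. The authors deposited 1 linear intensity per probe set and array. Per the submitters' processing notes these came from RMA, which subtracts background, forces the arrays to one distribution and combines probes, and so takes out any shift common to most genes. Its version, the array annotation and the build were not given in the sources used here. Median intensity per array, over all probe sets, ran from 145.2 to 151.4, and no value column was left out. The number of arrays, 4 a group, limits the precision.

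Log2 was taken with no pseudocount. Of 34760 probe sets, 21640 had 1 gene symbol in the platform table and were tested with lmFit and eBayes of limma 3.58.1 (R 4.3.3), a two-sided test of Sca1-HGAL against Control without covariates, with Benjamini-Hochberg adjustment over all 21640. A gene is represented by its probe set with the highest mean. The limma step was tested on simulated data. The members and lists were chosen with earlier results of these data known. Named were all members, up to 6 genes per list with an unadjusted p under 0.05, a fixed set of genes (Trp53 not analysed here) and the 4 most similar profiles. Promoter windows are RefSeq's (GRCm38.p6). Marker lists were named by their mean level and defining genes. Alas2, Casp8, Ccr7, Cd5, Cxcr5, Eif2s3y, Irf8, Klf1, Klf2, Tcf4 and Xist were named after their values were seen. Alternatives were another scaling, a filter at a mean log2 of 6, array weights, a replicate block, other priors, other probe sets and leaving out arrays.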

Additional observations from a re-analysis of the deposited data

Results flagged for a closer look

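Dixon's test for a lone high or low value among 4 was applied to 50 gene and group pairs and marked 4, while chance marks about 2.5. Bcl2l1 was at 8.35 on Control 4, above 7.46 to 7.54 on the other Control arrays. Bcl2l13 was at 9.22 on Sca1-HGAL 1, above 9.17 on its group mates, a small gap. Naip5 was at 8.32 on Sca1-HGAL 3, below 8.91 to 8.95 on the other Sca1-HGAL arrays. Foxo1 was at 11.19 on Sca1-HGAL 4, above 11.07 to 11.09 on the other Sca1-HGAL arrays.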

How the results depend on the processing

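No member passed at an adjusted p under 0.05 in any of the 18 alternatives run. The count of members at an unadjusted p under 0.05 was 3 or 4 throughout, and 3 with the replicate block, where Bmf had a log2 fold of -0.69 (adjusted p = 0.212). The members counted were not always the same. Bak1, lower in Sca1-HGAL, was counted with array weights and without Sca1-HGAL replicate 1. Bcl2, higher in Sca1-HGAL, was counted without Sca1-HGAL replicate 3. Bcl2l1, also higher, was counted without Control replicate 4 and without Control replicates 2 and 4. Same-numbered arrays deviated from their group means with correlations of -0.16, 0.0529, -0.134 and -0.0103, so the numbers were not taken to pair them. Bmf and Bcl2l11 were lower in Sca1-HGAL at an unadjusted p under 0.05 in all 18 alternatives, with log2 folds of -0.79 to -0.57 and -0.57 to -0.32. Bid was so in 17, and missed it without Control replicates 2 and 4, where its log2 fold was -0.19 (limma unadjusted p = 0.056, adjusted p = 0.627). Not all 18 could move the log2 folds. Averaging probe sets could not, since each member has 1 probe set. The filter, the block, the other priors and the fit over all 34760 probe sets also left the log2 folds unchanged and moved the p-values alone. With arrays left out 1 at a time, 2 members with values near 0 changed sign, Pmaip1 with a range of -0.07 to 0.25 and Bcl2l1 with a range of -0.01 to 0.29. The lowest Bcl2l1 values came without Control replicate 2 or 3, and the cause was not tested. The adjusted p of Bmf ran from 0.0881 without Sca1-HGAL replicate 3 to 0.471 without Control replicates 2 and 4. The widest 95% intervals were those of Pmaip1, -0.33 to 0.50, and Bcl2l1, -0.35 to 0.49, which include Control 4 at 8.35 for Bcl2l1. Over all probe sets, 1 passed at an adjusted p under 0.05, against 40 without Sca1-HGAL replicate 3, 12 with array weights, 6 with the replicate block, 3 with median centring and 0 with an ordinary linear model. The count was 2 with probe sets averaged per gene and without Sca1-HGAL replicate 1, Control replicate 1 or Control replicates 2 and 4, and 1 in the other alternatives.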
